A study of Mus musculus with 24 samples.

Results

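Glioma cells sorted from late tumours were compared with glioma cells sorted from early symptomatic tumours in 8 sequencing libraries of a series of 24. The tumours were raised in mice by transferring PDGFB, a growth factor gene, into cells lining the ventricles of the embryonic telencephalon. Tumours were dissected out under fluorescence, and fluorescent glioma cells were sorted by FACS apart from the non-fluorescent cells around them. The 4 late gliomas were 3054A, taken at 120 days after transduction, 3054B and 3054C, both at 175 days, and 3057E, at 100 days. The 4 early symptomatic gliomas were 3108C and 3108D, both at 43 days, 3109D at 50 days and 3145A at 35 days. Members were chosen by the letters that end the library labels, tD for late and pS for early, whose meaning the labels do not spell out. The labels record symptoms on the day of collection in all 8 animals, and they give no strain, sex or other allele. The sorted cells of 3057E were red, whereas the other 7 gliomas were sorted as green. Codes of late tumours share no prefix with codes of early ones, so stage, days and code prefix cannot be told apart. The 4 asymptomatic gliomas of the series (33 to 34 days) entered the fit but not the contrast of late with early. They shared in the filter on low counts, the scaling and the estimate of spread. The surrounding cells were used for comparison.

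PDGFB signals through the receptor Pdgfra, which drives the division of oligodendrocyte precursor cells (OPC), the cell type that gliomas of this kind resemble. OPC are unusual among glial cells in carrying voltage-gated channels and neurotransmitter receptors, and they receive synapses from neurons. Cells short of oxygen stabilise the HIF transcription factors, which bind a short DNA core near genes of glycolysis, angiogenesis and collagen crosslinking. The Cdkn2a locus encodes brakes on the cell cycle that act through the retinoblastoma protein and through p53.

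Totals were 1.04e+07 to 1.32e+07 expected counts per late glioma library and 9.49e+06 to 1.42e+07 per early one. Levels are given as CPM, the count of a gene relative to a common library total, scaled over all libraries, in the order 3054A, 3054B, 3054C and 3057E for late gliomas and 3108C, 3108D, 3109D and 3145A for early ones. The summed level of OPC markers was 14009 to 19633 CPM in late gliomas without 3057E, 18046 CPM in 3057E and 19059 to 22673 CPM in early gliomas. Surrounding cells held 5071, 3201, 851 and (3057E) 14158 CPM of these markers in late tumours and 7263 to 16299 CPM in early ones. The range in late gliomas thus overlapped that of late surrounding cells through 3057E alone, and it overlapped that of early surrounding cells. In every one of these tumours the glioma library held more than the surrounding library of the same code. Pdgfra stood at 3205, 3293, 2674 and (3057E) 3219 CPM in late gliomas, against 5779.5, 4239, 4632 and 4304 CPM in early gliomas. Olig2, a transcription factor of the lineage, had a log2 fold change of -0.37 ± 0.16 without 3057E (adjusted p = 0.114). Xist, transcribed from the inactive X chromosome, was at 483 to 995 CPM in late 3054A and 3054B and at 1.06 to 7.66 CPM in 3054C and 3057E. It was at 474 to 1611 CPM in early 3108C, 3108D and 3145A and at 1.90 CPM in 3109D, so sex was not balanced over the groups.

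The late glioma 3057E stood apart from the other 3 late gliomas before any gene was tested. On the first principal component of the 8 libraries, which held 39.9% of the variance, 3054A, 3054B and 3054C lay at 69.2 to 74.5 and 3057E lay at -78.2, against -48.9 to -14.2 in the early gliomas. The second component, with 20.5% of the variance, placed 3057E at 85.3, against -71.8 to -2.02 in the early gliomas. The library of 3057E also held transcripts of microglia, the resident macrophages of the brain. Their 14 markers summed to 3143 CPM in 3057E and 66.4 to 124 CPM in 3054A, 3054B and 3054C, against 132 to 229 CPM in early gliomas. Macrophage and leukocyte markers summed to 1229 CPM in 3057E and 26.2 to 49.0 CPM in these 3 late gliomas, against 26.2 to 101 CPM in early gliomas. The part of these transcripts in the results with 3057E was not tested. The comparison is therefore given with all 4 late gliomas and without 3057E. Where the count of a gene list with all 4 late gliomas is not stated, at most 1 of its members passed in either direction.

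**Figure D1:**
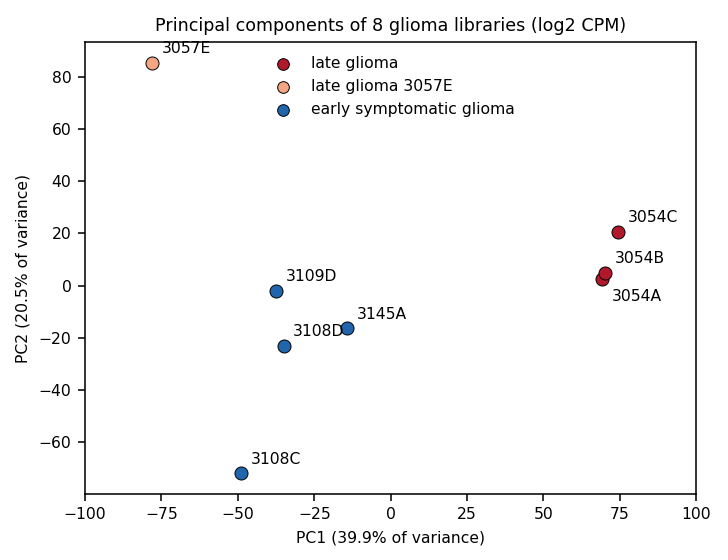
First (horizontal) and second (vertical) principal component scores of log2 CPM in the 8 glioma libraries, 1 point each. The 3 late gliomas other than 3057E sit together at 69.2 to 74.5 on the first component, and 3057E lies at -78.2, on the far side of all early gliomas.

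With all 4 late gliomas, 45 of 16494 genes tested passed edgeR's quasi-likelihood test at an adjusted p under 0.05, a share of 0.273%. Of them 33 were higher in late gliomas (0.200%) and 12 were lower (0.0728%), and 3243 genes had an unadjusted p under 0.05. Without 3057E, 2912 of 16937 genes tested passed (17.2%), of which 1453 were higher (8.58%) and 1459 were lower (8.61%). Among these, 756 were higher and 988 lower by more than 2-fold. All 45 genes of the first comparison were among the 2912 of the second, with the same direction. The median log2 fold change over all genes tested was 0.04 with all 4 late gliomas and -0.03 without 3057E. The count of 45 became 989 with DESeq2, 2613 with limma voom and sample weights, and 8 when the asymptomatic gliomas were left out of the fit. Both counts moved with single libraries. Axl and Lox were called in all 12 fits that left 1 library out, Tmem123 in 11, Itga4 in 10, Slc1a4 in 9 and Sft2d2 in 8, and the rest of the 45 genes in at most 5. The 45 became 7, 4 and 5 without late 3054A, 3054B or 3054C, and 2, 5, 8 and 6 without early 3108C, 3108D, 3109D or 3145A. They became 9, 23, 23 and 17 without asymptomatic 3228A, 3228B, 3228D or 3229B. The 2912 became 1877, 1896 and 1501 without 3054A, 3054B or 3054C, and lay between 2200 and 3358 without any 1 of the other libraries.

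Among the 33 higher genes, the largest log2 fold changes, apart from that of Cnpy1, belonged to Igf2bp2, Ulbp1 and Foxf1. Igf2bp2, an RNA-binding protein of fetal tissues (chromosome 16, 22059009 to 22163299, GRCm38), stood at 13.2, 26.2, 9.35 and (3057E) 0.659 CPM in late gliomas, against 0.0852, 0.201, 0.0793 and 0 CPM in early gliomas. All 4 late gliomas lay above all early ones, and 3057E was the lowest of the late. Its log2 fold change was 7.02 ± 1.08 with all 4 late gliomas (SE, 4 late and 4 early libraries, adjusted p = 0.0232) and 7.42 ± 0.68 without 3057E (adjusted p = 1.05e-04). Foxf1, a forkhead transcription factor of mesenchyme (chromosome 8, 121084386 to 121088144), was at 21.02, 19.2, 11.5 and (3057E) 4.61 CPM in late gliomas, against 1.70, 0.302, 0.793 and 1.36 CPM in early gliomas, with no overlap (log2 fold change 3.70 ± 0.57, adjusted p = 0.0232). Rcor2, a corepressor that works with a histone demethylase, was at 24.3, 29.0, 34.5 and (3057E) 3.71 CPM in late gliomas, against 2.64, 2.62, 3.25 and 1.88 CPM in early gliomas. In 3057E it lay just above the early range, and the log2 fold changes were 3.11 ± 0.52 with 3057E and 3.45 ± 0.28 without it. Cnpy1, a gene linked to FGF signalling at the midbrain-hindbrain boundary in zebrafish, was at 4.25, 8.54, 2.11 and (3057E) 1.89 CPM in late gliomas and had no count in any early glioma. Against a floor of 3 counts over the early group it was at least 67.3-fold higher with all 4 late gliomas and at least 79.4-fold higher without 3057E.

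Ulbp1 encodes a ligand of NKG2D, an activating receptor of natural killer cells, and lies on chromosome 10, 7440362 to 7473638. It stood at 58.4, 45.1, 32.2 and (3057E) 2.97 CPM in late gliomas, against 2.13, 1.41, 2.77 and 3.63 CPM in early gliomas. Here 3057E lay within the early range, the only one of the 45 genes for which it did so. The log2 fold change was 3.76 ± 0.67 with all 4 late gliomas (adjusted p = 0.0437) and 4.12 ± 0.33 without 3057E (adjusted p = 3.21e-05). Among the 12 fits that left 1 library out, the call held in 1, the fit without 3057E. Mr1, a molecule related to MHC class I that presents vitamin B metabolites, was at 5.70, 14.9, 6.56 and (3057E) 9.80 CPM in late gliomas, against 0.511, 1.11, 1.98 and 0.324 CPM in early gliomas. In Mr1 all late gliomas, 3057E included, lay above the early ones. Itga4, an integrin subunit, was at 16.0, 23.7, 16.0 and (3057E) 9.31 CPM in late gliomas, against 2.05, 3.93, 2.695 and 2.59 CPM in early gliomas, also with no overlap (log2 fold change 2.51 ± 0.32, adjusted p = 0.00936). T and NK cell markers summed to 0.450 to 0.830 CPM in late gliomas without 3057E and 2.64 CPM in 3057E, against 0.951 to 2.59 CPM in early gliomas. None of these markers reached the count needed for a test.

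The retinoid and signalling genes among the 33 were above the early range in 3057E too. Rarb, a retinoic acid receptor whose own gene responds to retinoic acid, was at 35.5, 47.5, 24.1 and (3057E) 19.8 CPM in late gliomas, against 5.37, 5.84, 10.4 and 5.12 CPM in early gliomas. Here 3057E lay above every early glioma and below the other late ones. Axl, a receptor kinase that binds Gas6 (chromosome 7, 25757273 to 25788705), was at 140.3, 279.6, 164 and (3057E) 142 CPM in late gliomas, against 45.5, 23.2, 39.9 and 26.3 CPM in early gliomas. Its level in 3057E was within the range of the other late gliomas. Shc1, an adaptor that couples receptor kinases to Ras, was at 13.4, 17.5, 16.2 and (3057E) 16.4 CPM in late gliomas, against 5.71, 8.45, 7.69 and 7.38 CPM in early gliomas, with late values all above the early ones. Skap2, an adaptor of integrin signalling, was at 66.8, 113, 86.5 and (3057E) 43.8 CPM in late gliomas, against 18.2, 10.1, 17.4 and 8.23 CPM in early gliomas. Sema3e, a secreted guidance cue that binds plexin D1, had a log2 fold change of 2.27 ± 0.41 with all late gliomas and 2.47 ± 0.38 without 3057E. Tnfaip3 is a feedback inhibitor of NF-kB, and Nfe2l2 is the regulator of the antioxidant response. Both were higher in 3057E than in any other late glioma, at 31.5 and 38.7 CPM, against at most 30.0 and 27.2 CPM in the other late gliomas.

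**Figure D2:**
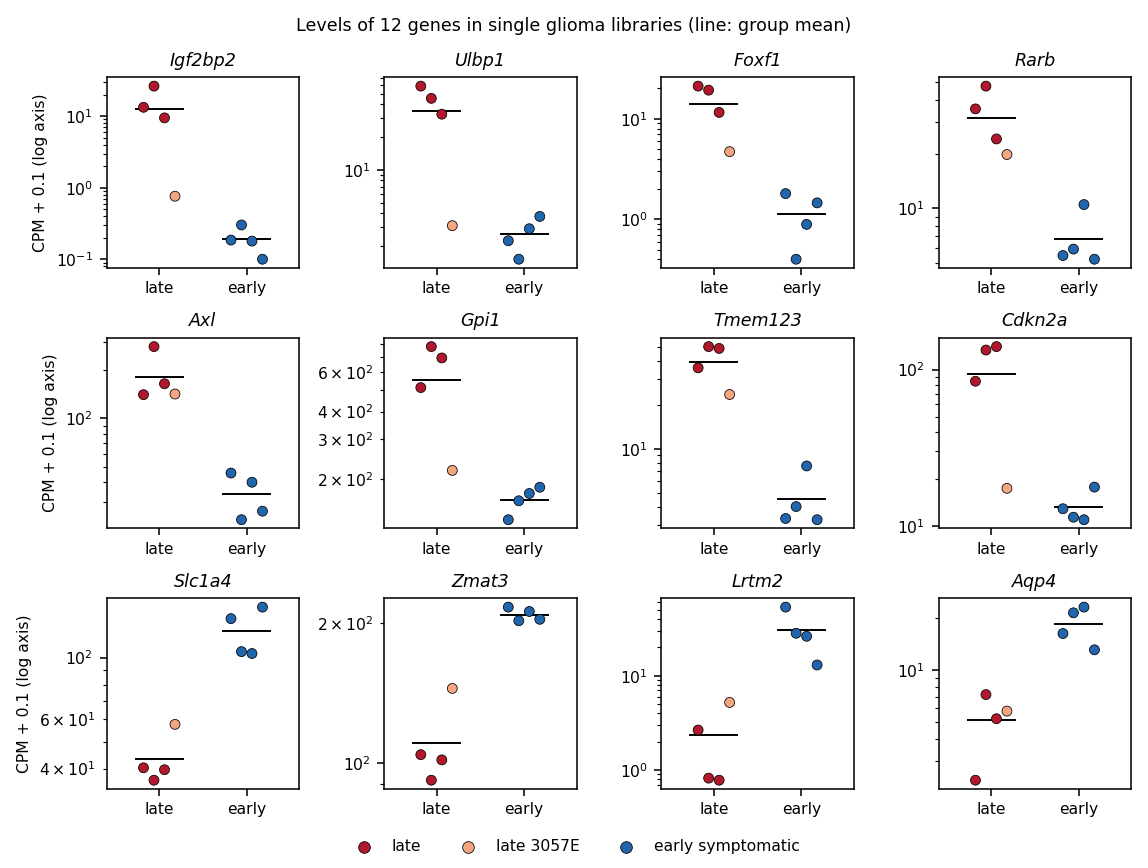
CPM plus 0.1 on a log axis (vertical) of 12 genes in late gliomas (left, 3057E in light orange) and early symptomatic gliomas (right), 1 point per library, with a line at the group mean. In Axl and Slc1a4 the 4 late gliomas lie apart from all early ones, and in Ulbp1 and Cdkn2a 3057E lies within the early range.

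The other genes called higher with all 4 late gliomas included enzymes and membrane proteins. Akr1b3, aldose reductase, was at 50.7, 46.4, 71.1 and (3057E) 38.8 CPM in late gliomas, against 20.03, 25.8, 21.2 and 29.7 CPM in early gliomas. Enpp1, an enzyme that splits extracellular nucleotides, was at 30.6, 21.7, 22.9 and (3057E) 25.5 CPM in late gliomas, against 10.4, 11.6, 13.8 and 11.8 CPM in early gliomas. Values of late and early gliomas did not overlap in either gene. The group also held Ehd2, a protein of caveolae (log2 fold change 1.54 ± 0.28), Tfpi, the inhibitor of tissue factor (2.27 ± 0.34), Pbxip1 (1.44 ± 0.22), Tpd52 (1.63 ± 0.29), Sft2d2 (2.13 ± 0.30), Tmem123 (3.12 ± 0.38), Prelid2 (3.42 ± 0.59) and Cdc42ep5 (3.37 ± 0.63). Ftl1-ps1 and Gpi-ps were called too, and since both are copies of expressed genes, Ftl1 and Gpi1, reads can be split between them and these 4 values are uncertain.

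The 12 lower genes included transporters, a channel and proteins of synapses. Slc1a4, a transporter of neutral amino acids (chromosome 11, 20302180 to 20332713), stood at 40.2, 36.2, 39.5 and (3057E) 57.5 CPM in late gliomas, against 138, 105, 103 and 151 CPM in early gliomas, and the highest late value was below the lowest early one (log2 fold change -1.53 ± 0.20, adjusted p = 0.00936). Lrtm2, a membrane protein gene (chromosome 6, 119315133 to 119330766), was at 2.55, 0.719, 0.679 and (3057E) 5.11 CPM in late gliomas, against 53.3, 28.1, 26.1 and 12.9 CPM in early gliomas, with no overlap and a log2 fold change of -3.72 ± 0.63. Asymptomatic gliomas held 4.23 to 6.08 CPM of Lrtm2, below all early values. Kalrn, an exchange factor of small GTPases in dendritic spines, was at 12.7, 15.6, 10.5 and (3057E) 20.3 CPM in late gliomas, against 37.8, 43.7, 33.1 and 25.9 CPM in early gliomas. In Kalrn the groups did not overlap and 3057E was the late glioma nearest to the early ones. Sorcs3, a sorting receptor, had a log2 fold change of -1.20 ± 0.22, and Tmem130 one of -3.99 ± 0.62. Sfrp2, a secreted Wnt inhibitor, was at 13.8, 16.2, 14.6 and (3057E) 13.8 CPM in late gliomas, against 34.3, 29.8, 25.3 and 54.4 CPM in early gliomas. Aqp4, the water channel of astrocytes, was at 2.21, 7.10, 5.13 and (3057E) 5.68 CPM in late gliomas, against 16.1, 21.2, 22.9 and 12.95 CPM in early gliomas. Zmat3, an RNA-binding target of p53, was at 104, 91.6, 101 and (3057E) 145 CPM in late gliomas, against 217, 202, 212 and 204 CPM in early gliomas, again without overlap. Ccdc190 and Gm10545 were lower as well. Grin1os lies antisense to Grin1, and since the strand setting of the counting is not given in the sources used here, its reads cannot be told apart from those of Grin1.

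Genes of the response to low oxygen were called more often in the higher direction than genes at large (0.200% with all 4 late gliomas, 8.58% without 3057E). Of 25 tested members of a hypoxia list, 3 were higher with all 4 late gliomas and none lower, with a median log2 fold change of 1.19. Without 3057E, 20 of 26 were higher and 1 was lower, with a median of 1.53. Bnip3, a mitophagy receptor, was at 123, 171, 263 and (3057E) 23.1 CPM in late gliomas, against 24.2, 19.3, 22.4 and 18.005 CPM in early gliomas, so that 3057E lay within the early range (log2 fold change without 3057E 3.10 ± 0.28, adjusted p = 8.71e-05). Plod2, which hydroxylates collagen lysines, was at 87.8, 84.3, 76.9 and (3057E) 10.6 CPM in late gliomas, against 13.3, 22.6, 23.8 and 20.01 CPM in early gliomas. In Plod2, 3057E was below all early gliomas. Ero1l, an oxidase of protein folding, had a log2 fold change of 1.46 ± 0.17 without 3057E. The 1 lower member was Epas1, which encodes HIF-2 alpha (-2.62). Lox, a collagen-crosslinking oxidase, and Car9, a carbonic anhydrase, were the members called in both comparisons with Pfkfb3, an activator of glycolysis. Pfkfb3 was at 51.9, 74.8, 70.8 and (3057E) 31.6 CPM in late gliomas, against 17.98, 14.6, 15.5 and 10.1 CPM in early gliomas, and its values did not overlap.

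Glycolysis genes followed the same split between 3057E and the other late gliomas. Of 19 tested members, 1 was higher and none lower with all 4 late gliomas (median log2 fold change 0.94), and 14 were higher and none lower without 3057E (median 1.16). Over all genes tested the higher shares were 0.200% and 8.58%. Pgk1, phosphoglycerate kinase, was at 454, 456, 673 and (3057E) 153 CPM in late gliomas, against 112, 134, 145 and 181 CPM in early gliomas. Tpi1, triosephosphate isomerase, was at 273, 347, 461 and (3057E) 74.1 CPM in late gliomas, against 39.6, 60.3, 98.4 and 84.5 CPM in early gliomas. Gapdh was at 344, 491, 425 and (3057E) 165 CPM in late gliomas, against 184, 176, 178 and 194 CPM in early gliomas. The 3 late gliomas were above all early ones in each gene, while 3057E was within the early range in Pgk1 and Tpi1 and below it in Gapdh. Genes of this group have processed copies in the genome, so that part of their reads can be assigned to copies. Endothelial markers summed to 22.3 to 137 CPM in late gliomas without 3057E and 27.8 CPM in 3057E, against 19.2 to 47.5 CPM in early gliomas, and their part in these calls was not tested. Of 7 tested endothelial markers, Flt1 was higher and Vwf lower without 3057E.

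The promoters of hypoxia and glycolysis genes are shown because HIF binds the core ACGTG, and the related GCGTG is bound with it. Promoter windows from RefSeq (GRCm38.p6) cover 250 bases before and 50 bases after a start and were searched on both strands, where CACGTG counts as a match on each. The core ACGTG was in 24.9% of 14173 windows of genes tested without 3057E. It was in 28.6% of 1250 windows of higher genes and in 21.4% of 1334 windows of lower genes. Of 44 windows of the hypoxia and glycolysis members that were higher without 3057E (30 of 34 genes matched), 56.8% held it. GCGTG was in 52.3% of these windows, against 49.5% of all. Both lists were written from known roles of genes, and their uncalled members were not counted apart. These shares therefore cannot speak to the stage difference. The windows below belong to Car9, Gpi1 and Pfkfb3, members called higher in both comparisons, and to Bnip3 and Pgk1, called without 3057E and described above. Capitals mark ACGTG or GCGTG on either strand, and each window is written 5′ to 3′ on the strand of its gene. Car9 lies at chr4:43506776-43507075 (plus strand), Gpi1 at chr7:34230287-34230586 (minus strand), Pfkfb3 at chr2:11553880-11554179 and chr2:11502041-11502340 (minus strand), Bnip3 at chr7:138909457-138909756 (minus strand) and Pgk1 at chrX:106186850-106187149 (plus strand).
Car9: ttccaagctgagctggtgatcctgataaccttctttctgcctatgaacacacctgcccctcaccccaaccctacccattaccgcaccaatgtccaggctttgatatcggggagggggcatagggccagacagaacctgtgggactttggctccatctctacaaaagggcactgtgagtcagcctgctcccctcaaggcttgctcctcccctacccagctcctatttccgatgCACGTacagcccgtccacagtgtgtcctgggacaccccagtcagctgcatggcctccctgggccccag
Gpi1: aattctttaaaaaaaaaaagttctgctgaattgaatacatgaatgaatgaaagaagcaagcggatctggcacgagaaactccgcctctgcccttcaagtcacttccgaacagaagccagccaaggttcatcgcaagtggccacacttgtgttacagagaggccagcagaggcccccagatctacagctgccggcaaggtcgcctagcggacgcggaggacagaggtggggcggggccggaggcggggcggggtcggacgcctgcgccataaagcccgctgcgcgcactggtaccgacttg
Pfkfb3, upstream start: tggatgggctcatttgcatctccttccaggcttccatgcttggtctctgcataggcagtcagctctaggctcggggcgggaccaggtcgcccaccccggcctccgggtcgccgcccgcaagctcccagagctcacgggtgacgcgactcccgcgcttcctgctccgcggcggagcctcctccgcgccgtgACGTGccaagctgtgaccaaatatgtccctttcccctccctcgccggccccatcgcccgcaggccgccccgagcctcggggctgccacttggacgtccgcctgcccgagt
Pfkfb3, downstream start: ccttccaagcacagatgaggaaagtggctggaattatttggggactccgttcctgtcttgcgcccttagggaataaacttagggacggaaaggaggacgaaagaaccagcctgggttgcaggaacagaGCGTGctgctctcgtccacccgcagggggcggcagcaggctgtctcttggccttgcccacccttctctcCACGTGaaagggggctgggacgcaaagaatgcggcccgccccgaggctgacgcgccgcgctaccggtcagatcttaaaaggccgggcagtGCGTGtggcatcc
Bnip3: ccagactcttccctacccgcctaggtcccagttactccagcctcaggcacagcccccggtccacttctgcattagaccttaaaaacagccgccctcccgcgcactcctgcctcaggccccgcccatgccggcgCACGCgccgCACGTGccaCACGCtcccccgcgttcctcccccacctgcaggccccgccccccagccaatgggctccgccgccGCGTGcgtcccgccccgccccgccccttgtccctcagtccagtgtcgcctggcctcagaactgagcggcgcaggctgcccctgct
Pgk1: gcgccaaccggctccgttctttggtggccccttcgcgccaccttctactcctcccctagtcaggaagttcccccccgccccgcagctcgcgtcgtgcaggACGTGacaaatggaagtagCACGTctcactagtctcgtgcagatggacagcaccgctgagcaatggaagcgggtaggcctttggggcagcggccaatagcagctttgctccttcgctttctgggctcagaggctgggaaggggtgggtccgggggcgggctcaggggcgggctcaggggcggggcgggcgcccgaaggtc
Bnip3 held 5 matches, the downstream start of Pfkfb3 4, Pgk1 2, and Car9 and the upstream start of Pfkfb3 1 each. The window of Gpi1 held none. The level of Gpi1 was 512, 782, 696 and (3057E) 218 CPM in late gliomas, against 131, 159, 172 and 183 CPM in early gliomas.

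Without 3057E, the higher genes with the largest folds included genes of matrix, vessels and vesicle transport. Col18a1, the collagen that releases endostatin, stood at 341, 636 and 342 CPM in the 3 late gliomas and 10.9 CPM in 3057E, against 9.29, 15.6, 19.98 and 9.84 CPM in early gliomas. Its log2 fold change was 4.97 ± 0.90 (SE, 3 late and 4 early libraries, adjusted p = 0.00534). Flt1, a receptor of VEGF, was at 10.7, 117 and 65.5 CPM in the 3 late gliomas and 1.40 CPM in 3057E, against 2.90, 2.42, 2.85 and 0.971 CPM in early gliomas. Itih5, a protein that binds hyaluronan, was at 49.1, 207 and 54.5 CPM in the 3 late gliomas and 0.577 CPM in 3057E, against 2.90, 3.62, 5.63 and 2.59 CPM in early gliomas. The rule that chose these genes required the 3 late gliomas to lie above all early ones, and 3057E lay within or below the early range. Lgals1, galectin-1, was at 69.1, 92.6 and 94.8 CPM in the 3 late gliomas and 7.002 CPM in 3057E, against 3.07, 7.15, 3.25 and 7.71 CPM in early gliomas (log2 fold change 3.97 ± 0.53). The same order held in Loxl2, another crosslinking oxidase (3.86 ± 0.47), Cd109 (3.70 ± 0.78), Moxd1 (3.71 ± 0.70), Uaca (3.27 ± 0.48), Myo5b, a vesicle motor (3.37 ± 0.99), Col6a1 (3.32 ± 0.59) and Clca3a1 (3.78 ± 0.98). Npas2, a transcription factor of the circadian clock, had a log2 fold change of 3.25 ± 0.41. Pericyte and smooth muscle markers summed to 10.1 to 17.8 CPM in late gliomas without 3057E and 8.24 CPM in 3057E, against 4.08 to 13.3 CPM in early gliomas, and 1 of 7 tested, Abcc9, was higher without 3057E (median 1.10). Erythrocyte genes summed to 4.34 to 123 CPM in late gliomas without 3057E and 3.46 CPM in 3057E, against 1.28 to 29.3 CPM in early gliomas, with a median log2 fold change of 1.99 over 5 tested genes. The part of these cells in the matrix and vessel genes was not tested. Over all genes tested without 3057E, 8.58% were higher and 8.61% lower. Of 28 tested matrix and crosslinking genes, 8 were higher and none lower without 3057E (median 0.65), and 1 was higher with all 4 late gliomas. Of 20 integrin and focal adhesion genes, 5 were higher, among them Itgb1 (0.86 ± 0.18) and Vcl (1.54 ± 0.34), and Itgb8 was lower (-0.69 ± 0.21).

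The lower genes with the largest folds without 3057E included genes of synapses, transport and surface signalling. St8sia3, a brain sialyltransferase, was at 8.34, 5.04 and 6.64 CPM in the 3 late gliomas and 99.1 CPM in 3057E, against 87.0, 78.1, 126 and 102 CPM in early gliomas (log2 fold change -3.92 ± 0.26, adjusted p = 1.45e-05). Svop, a synaptic vesicle protein, was at 0.681, 0.989 and 1.58 CPM in the 3 late gliomas and 13.7 CPM in 3057E, against 23.4, 15.5, 22.7 and 26.04 CPM in early gliomas. Nr3c2, the mineralocorticoid receptor, was at 2.21, 1.26 and 2.41 CPM in the 3 late gliomas and 43.5 CPM in 3057E, against 39.6, 35.4, 22.3 and 28.3 CPM in early gliomas. The rule that chose these genes required the 3 late gliomas to lie below all early ones. In contrast, 3057E was within the early range in St8sia3, above it in Nr3c2 and below it in Svop. Gpr158 (-3.99 ± 0.54), Sntg1 (-3.96 ± 0.41), the proteoglycan Spock1 (-3.79 ± 0.39), Fstl5 (-3.74 ± 0.36), the glypican Gpc5 (-3.44 ± 0.35) and Slc6a11, a GABA transporter (-3.41 ± 0.43), were lower too. Ret, the receptor kinase for GDNF, had a log2 fold change of -3.57 ± 0.68. The clustered protocadherins Pcdhga7, Pcdhga8 and Pcdhgb2 were lower as well, but their transcripts share 3′ exons and their split counts are uncertain.

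Many channel and neurotransmitter receptor genes, which OPC share with neurons, were lower in late gliomas without 3057E, beside 8.61% lower over all genes tested. Of 26 tested voltage-gated channel genes none was higher and 16 were lower (median log2 fold change -1.25). Of 23 glutamate and GABA receptor genes none was higher and 14 were lower (median -1.27). With all 4 late gliomas no gene of either list passed edgeR's test, and the medians were -0.81 and -0.75. Gria1, an AMPA receptor subunit, was at 2.30, 4.23, 6.41 and (3057E) 37.6 CPM in late gliomas, against 39.3, 30.4, 41.2 and 30.2 CPM in early gliomas. Grin1, the obligate subunit of NMDA receptors, was at 14.5, 18.9, 24.4 and (3057E) 56.5 CPM in late gliomas, against 151, 104, 100.1 and 106 CPM in early gliomas. In Gria1 3057E lay within the early range, and in Grin1 it lay between the other late gliomas and the early ones. Among the channels, Kcnj16 (-1.65 ± 0.24) carries inward potassium current, Kcnd3 (-1.26 ± 0.23) carries A-type potassium current, and Cacna2d2 (-1.58 ± 0.21) and Cacna1b (-1.61 ± 0.30) are calcium channel subunits. Of 28 synapse and adhesion genes, 9 were lower and none higher (median -0.47), among them Dlg2, a scaffold of the postsynaptic density (-2.63 ± 0.28). Neuron markers summed to 200 to 333 CPM in late gliomas without 3057E and 289 CPM in 3057E, against 260 to 456 CPM in early gliomas. Of 12 tested neuron markers 3 were lower without 3057E, with Snap25 at 11.1, 24.7, 21.3 and (3057E) 55.1 CPM in late gliomas, against 136, 89.8, 55.4 and 70.1 CPM in early gliomas, and their part in the receptor and channel counts was not tested. In sorted bulk samples, fewer cells of a type and less RNA per cell cannot be told apart.

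Among guidance and receptor kinase genes, more members were lower than higher without 3057E. Of 28 semaphorin and axon guidance genes, 10 were lower and 3 higher, beside 8.61% lower and 8.58% higher over all genes tested, so the higher count was near the share of all genes. Plxnb3, a plexin of the oligodendrocyte lineage, was at 74.6, 221, 124 and (3057E) 39.2 CPM in late gliomas, against 21.5, 40.6, 25.2 and 25.97 CPM in early gliomas. Robo1, a receptor for Slit proteins, was at 9.53, 15.9, 12.3 and (3057E) 111 CPM in late gliomas, against 134, 76.7, 116 and 58.2 CPM in early gliomas. In both genes 3057E was within the early range. Of 29 receptor kinases, 4 were higher and 9 lower. Alk was at 0.936, 0.360, 0.981 and (3057E) 13.2 CPM in late gliomas, against 18.1, 9.26, 8.80 and 9.26 CPM in early gliomas. Ephb1 and Epha5, receptors for ephrins, had log2 fold changes of -3.08 ± 0.54 and -2.54 ± 0.33. Pdgfra itself was lower without 3057E by a log2 fold change of -0.67 ± 0.20 (adjusted p = 0.0353). Pdgfb did not pass the test, with 54.5, 59.99, 27.1 and (3057E) 44.5 CPM in late gliomas, against 103, 57.2, 39.1 and 55.7 CPM in early gliomas, and it is not known if reads of the transferred gene count towards it. The counts of the PDGF feedback, Wnt, Notch and Hippo lists were small, and several were near the shares over all genes, so the called members are given as single genes. Of 17 genes in the list of PDGF and MAPK feedback, Pdgfa, which encodes a PDGF ligand and is not a feedback gene, was higher (0.96 ± 0.24). Spry1, an inhibitor of receptor kinase signalling, was lower (-1.15 ± 0.22). Of 23 BMP and TGF-beta genes 4 were lower and none higher, with Tgfb2 at -1.98 ± 0.31 and Ltbp1 at -1.71 ± 0.30. Of 24 Wnt genes 1 was higher and 3 lower, among them Wnt7a, a signal of OPC to vessels (-1.67 ± 0.29). Of 16 Notch genes 2 were higher, Notch2 (1.63 ± 0.46) and Rbpj (0.64 ± 0.13), and 3 were lower, among them the ligand Dll1 (-1.31 ± 0.32) and the feedback gene Nrarp (-1.61 ± 0.41). Of 16 Hippo targets 3 were higher and 1 lower.

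Retinoid genes changed mostly in the higher direction. Of 12 tested, 5 were higher and 1 lower without 3057E, beside 8.58% higher and 8.61% lower over all genes tested. With all 4 late gliomas 2 were higher, beside 0.200% over all genes. Cyp26b1, which degrades retinoic acid, was at 3.15, 6.83, 3.92 and (3057E) 0.247 CPM in late gliomas, against 0.937, 0.403, 0.0793 and 0 CPM in early gliomas. Aldh1a1, which makes it, was at 8.42, 5.94, 9.35 and (3057E) 133 CPM in late gliomas, against 74.7, 52.5, 46.3 and 43.0 CPM in early gliomas. In Aldh1a1 the 3 late gliomas lay below all early ones, and 3057E lay above all of them.

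Many genes of proliferation and growth were higher in the late gliomas other than 3057E, beside 8.58% higher over all genes tested. Of 26 mitosis genes 16 were higher and none lower without 3057E (median 1.20), while none of the 26 passed edgeR's test with all 4 late gliomas (median 0.87). Mki67, a marker of cycling cells, was at 1774, 872, 662 and (3057E) 85.5 CPM in late gliomas, against 282, 278, 313 and 333 CPM in early gliomas. Cenpe, a kinetochore motor, was at 242, 96.3, 94.97 and (3057E) 15.2 CPM in late gliomas, against 38.5, 36.5, 38.4 and 40.5 CPM in early gliomas. Top2a, the topoisomerase of dividing cells, was at 837, 405, 512 and (3057E) 72.0 CPM in late gliomas, against 153, 120.4, 215 and 252 CPM in early gliomas. In all 3 genes 3057E was below every early glioma. Of 26 replication genes 7 were higher and none lower (median 1.06), among them the helicase subunit Mcm6 (1.69 ± 0.41) and Gins1 (1.64 ± 0.43). Of 32 ribosomal protein genes 30 were higher and none lower (median 0.75), with Rpl7 at 845, 1203, 1196 and (3057E) 387 CPM in late gliomas, against 449, 552, 488 and 538 CPM in early gliomas. Their many genomic copies make single values uncertain. Of 24 ribosome biogenesis genes 9 were higher and none lower (median 0.51), among them Npm1 (1.33 ± 0.19) and nucleolin, Ncl (0.84 ± 0.18). Closer to the share over all genes were 2 further lists. Of 26 chromatin regulators 4 were higher, among them Ezh2 (1.45 ± 0.27) and Dnmt1 (0.88 ± 0.26), and of 22 DNA repair genes 3 were higher.

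Cell cycle brakes and p53 genes did not move as a single group. Cdkn2a was at 84.1, 133, 140 and (3057E) 17.3 CPM in late gliomas, against 12.8, 11.3, 10.9 and 17.6 CPM in early gliomas, with 3057E inside the early range. Its log2 fold change was 3.13 ± 0.31 without 3057E (adjusted p = 1.23e-04) and 2.80 ± 0.52 with all 4 late gliomas (adjusted p = 0.0543). The G1 control list was called at about the shares over all genes (8.58% higher, 8.61% lower). Of its 24 tested members, Cdkn2a and Myc (1.36 ± 0.28) were higher without 3057E, and Mycn (-1.48 ± 0.28), Cdk6 (-3.11 ± 0.83) and Cdkn1a (-2.18 ± 0.66) were lower. Cdkn1a, a p53 target that inhibits cyclin-dependent kinases, was at 20.4, 63.7, 26.7 and (3057E) 38.1 CPM in late gliomas, against 339, 87.4, 87.2 and 129 CPM in early gliomas, so all 4 late gliomas lay below all early ones. Of 24 p53 genes 1 was higher and 10 lower without 3057E (median -0.60), and with all 4 late gliomas Zmat3 alone was lower (median -0.52). The higher one was Trp53, which encodes p53 (0.89 ± 0.19). Eda2r, a receptor of the TNF family, was at 2.89, 11.8, 5.28 and (3057E) 38.2 CPM in late gliomas, against 55.4, 87.0, 75.5 and 106 CPM in early gliomas. In Eda2r all late gliomas lay below the early ones, with 3057E nearest to them. Trp53inp1 had a log2 fold change of -1.68 ± 0.20. Aen, an exonuclease induced by p53, had a log2 fold change of -1.78 ± 0.23, and Sesn2, a stress-induced gene, one of -1.48 ± 0.25.

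Lineage genes were called in both directions, beside 8.58% higher and 8.61% lower over all genes. Of 16 OPC markers 4 were lower and none higher without 3057E: Ptprz1 (-0.74 ± 0.17), Lhfpl3 (-0.89 ± 0.25), Pdgfra and Neu4 (-2.69 ± 0.78). The median of the OPC markers was -0.04, against -0.03 over all genes. Of 14 mature oligodendrocyte markers 2 were higher, Cldn11 (1.96 ± 0.45) and Myrf, a factor that switches on myelin genes (1.99 ± 0.62). Of 23 lineage factors 5 were higher, among them Bcas1 of differentiating oligodendrocytes (1.73 ± 0.25), and 3 were lower, among them Sox5 (-1.01 ± 0.22). Of 14 astrocyte markers 4 were lower and none higher (median -1.26), among them the glutamate transporter Slc1a2 at 493, 437, 336 and (3057E) 1471 CPM in late gliomas, against 1355, 1386, 1824 and 1128 CPM in early gliomas. Gfap did not pass the test, at 16.3, 58.1, 56.3 and (3057E) 9.64 CPM in late gliomas, against 159, 123, 83.9 and 11.9 CPM in early gliomas. Astrocyte markers summed to 1799 to 2380 CPM in late gliomas without 3057E and 2891 CPM in 3057E, against 3034 to 4021 CPM in early gliomas. Of 23 Sox, Id and stem cell factors Id3 was higher (2.97 ± 0.37), and Id2 (-1.35 ± 0.41), Pou3f2 (-0.63 ± 0.17) and Dcx (-0.86 ± 0.23) were lower.

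Immune response and stress genes moved in fewer members. Of 24 interferon response genes 7 were higher and none lower without 3057E (median 0.86), and none of the 24 passed edgeR's test with all 4 late gliomas (median 1.06). Rsad2, an antiviral enzyme, was at 7.15, 17.9, 9.28 and (3057E) 10.4 CPM in late gliomas, against 2.73, 1.81, 2.30 and 4.34 CPM in early gliomas. Ifit1, another antiviral protein, was at 18.04, 21.6, 21.3 and (3057E) 37.9 CPM in late gliomas, against 8.44, 11.1, 7.13 and 10.8 CPM in early gliomas. All late gliomas lay above all early ones in both genes, and in Ifit1 3057E was the highest of the late. The interferon element GAAANNGAA was in 3 of 6 promoter windows of the higher members (50.0%), against 7.0% of all windows. Uncalled members of this list, written from known roles, were not counted apart, so this share cannot speak to the stage difference. Of 12 MHC class I genes 2 were lower, the peptide transporter genes Tap1 (-0.75 ± 0.23) and Tap2 (-1.22 ± 0.26). For the NF-kB, Nfe2l2, immediate early, lysosome and amino acid lists the higher counts were near the share over all genes (8.58%), and the called members are named as single genes. Of 17 NF-kB genes 2 were higher, Tnfaip3 and Nfkb2 (1.37 ± 0.40). Of 17 genes in the Nfe2l2 list 2 were higher, the regulator Nfe2l2 itself and Ftl1, whose value is uncertain because of its copy. The antioxidant element TGACNNNGC was in 188 of 1250 windows of higher genes, and in 2002 of 14173 windows of all. Of 18 immediate early genes 2 were higher, Ier3 (1.39 ± 0.18) and Atf3 (1.83 ± 0.46), and Fos, a gene induced by handling of cells, did not pass (0.87 ± 0.38). Of 21 heat shock and folding genes 6 were higher, among them the chaperone Hspa5 (1.27 ± 0.29). Of 25 oxidative phosphorylation genes 4 were higher, and of 20 lysosome and autophagy genes 2 were higher and 1 lower. Of 22 serine, amino acid and Atf4 genes 1 was higher and 4 lower, among them the arginine transporter Slc7a3 (-1.27 ± 0.31). Of 15 cytokine and chemokine genes 2 were lower, Lifr (-1.65 ± 0.31) and Cx3cl1 (-0.92 ± 0.22). None of 21 cholesterol synthesis genes passed edgeR's test in either comparison, with a median of -0.62 without 3057E and -0.61 with it.

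**Figure D3:**
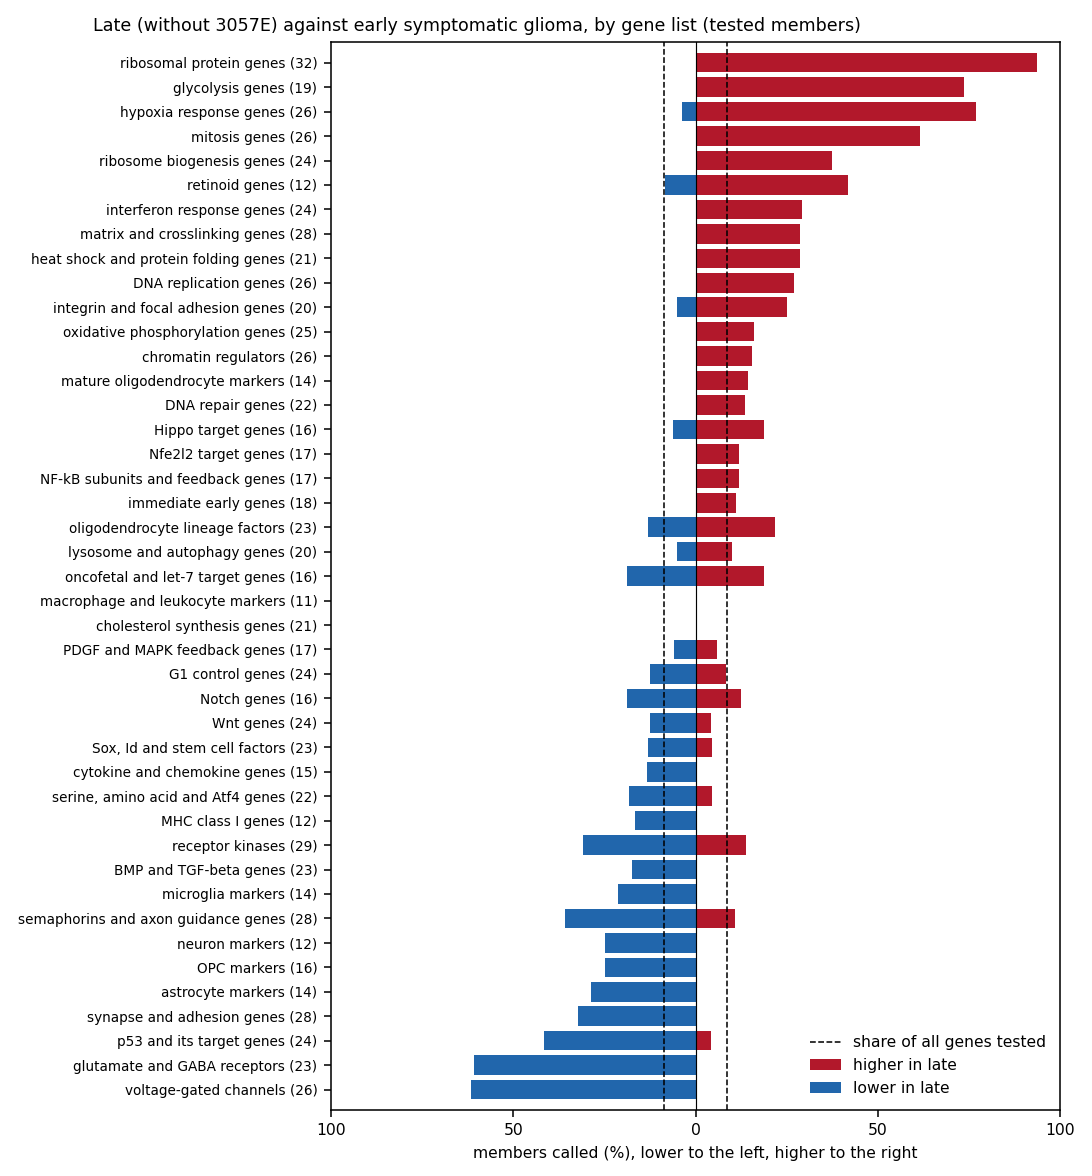
Share of tested members (horizontal, %) called higher (red, right) or lower (blue, left) in late gliomas without 3057E against early symptomatic gliomas, for gene lists with at least 10 tested members, whose number follows the name. Dashed lines mark the shares over all genes tested, 8.58% higher and 8.61% lower. Ribosomal protein genes have 30 of 32 members higher, and voltage-gated channels have 16 of 26 lower.

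Neighbouring genes on chromosome 6 were followed after their values had been seen. The anterior Hoxa genes, which give cells their position along the body axis and are normally silent in the telencephalon, were counted in the 3 late gliomas other than 3057E. Hoxa3 was at 8.68, 14.0, 12.3 and (3057E) 0 CPM in late gliomas and at 0 CPM in every early glioma. Hoxa5 was at 8.93, 17.99, 10.9 and (3057E) 0.494 CPM in late gliomas and at 0 CPM in every early glioma, and Hoxa4 gave 8.51, 11.2, 10.2 and (3057E) 0.494 CPM in late gliomas. Against the floor of 3 counts over the early group, Hoxa3 was at least 193-fold, Hoxa4 at least 165-fold and Hoxa5 at least 206-fold higher without 3057E. Hoxa2 was at 2.64, 10.8, 3.85 and (3057E) 0.247 CPM in late gliomas, against 0.511, 0, 0.476 and 0 CPM in early gliomas (adjusted p = 0.0496 without 3057E). Hoxa7 was at 0.851, 17.6, 1.96 and (3057E) 0.577 CPM in late gliomas, against 0.0852, 0, 0 and 0.259 CPM in early gliomas, with the value of 3054B far above the others, and the posterior genes Hoxa9 to Hoxa13 had at most 0.170 CPM in any late glioma. Of 28 Hox genes listed, 6 were tested without 3057E, and 5 of them were higher. Hoxa4 and Hoxa5, with no early count, reached the test through their counts in the late gliomas and could not be called lower. This count therefore cannot be weighed against the 8.58% higher over all genes tested. In the asymptomatic gliomas Hoxa3 reached 2.73 CPM in 3228A. Skap2 (chromosome 6, 51857422 to 52012549 in GRCm38), which was higher in all 4 late gliomas, neighbours the cluster. Transcripts of the cluster overlap, and without a stated strand setting their single values are uncertain.

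Neighbours and relatives of other called genes were looked up in the same way. En2, a homeobox gene of the midbrain and hindbrain next to Cnpy1 on chromosome 5, was at 9.78, 11.7, 8.45 and (3057E) 3.95 CPM in late gliomas, against 0.682, 0, 1.51 and 0 CPM in early gliomas (log2 fold change 4.12 ± 0.87 without 3057E, adjusted p = 0.00829). Fendrr, a noncoding RNA beside Foxf1 on chromosome 8, did not pass the test (1.88 ± 0.81, adjusted p = 0.121). Besides Ulbp1, the NKG2D ligand genes Raet1d (1.96 ± 0.55), Raet1e (5.23 ± 0.97) and H60b (3.03 ± 0.79) were higher without 3057E and did not pass with it. Raet1d was at 12.3, 7.28, 8.83 and (3057E) 1.89 CPM in late gliomas, against 0.597, 0.906, 3.49 and 4.34 CPM in early gliomas, so 3057E lay within the early range. In the annotation of chromosome 10, Raet1e overlaps both Raet1d and H60b, and reads can be split between Raet1e and each of them. Of 16 oncofetal and let-7 target genes 3 were higher and 3 lower without 3057E, beside 8.58% higher and 8.61% lower over all genes tested. The lower ones were the imprinted genes Peg3 (-1.16 ± 0.24), Peg10 and Meg3. Hmga1, a chromatin protein of embryonic cells, was at 109.7, 191, 172 and (3057E) 35.4 CPM in late gliomas, against 50.8, 35.4, 45.3 and 44.2 CPM in early gliomas. Dlk1, counted as higher, is listed under 2 identifiers that moved in opposite directions, so its change is uncertain.

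**Figure D4:**
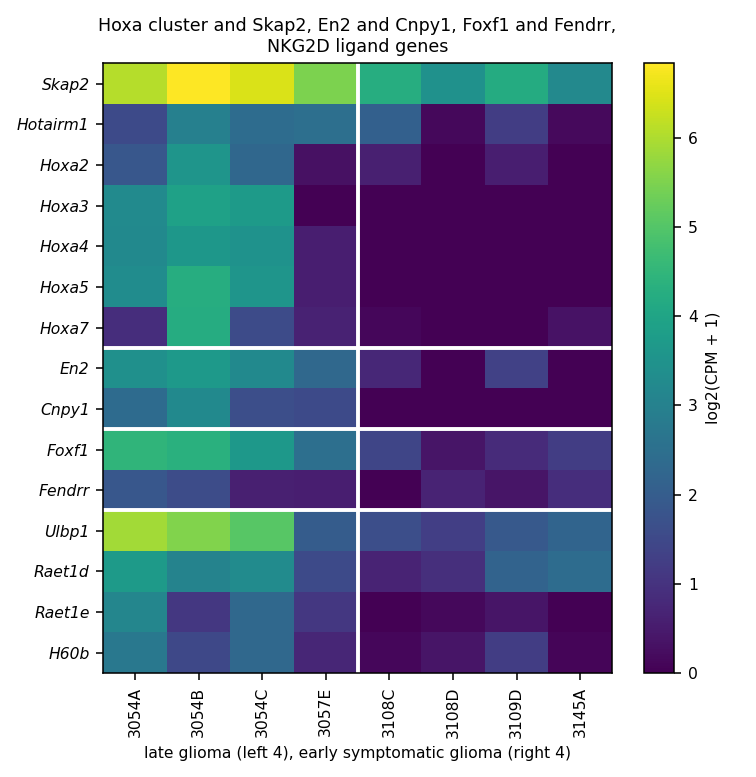
Levels as log2(CPM + 1) (colour) of the Hoxa cluster and Skap2, En2 and Cnpy1, Foxf1 and Fendrr, and the NKG2D ligand genes (rows) in the 4 late gliomas (left) and the 4 early symptomatic gliomas (right). Hoxa3, Hoxa4 and Hoxa5 are at 8.51 to 17.99 CPM in 3054A, 3054B and 3054C and at 0 in every early glioma.

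The level of 3057E was placed on a scale that runs between 0 at the early mean and 1 at the mean of the other 3 late gliomas. Over the 2912 genes called without it, its median was -0.05. It lay on the late side of all early gliomas in 705 of these genes, within the early range in 1340 and beyond it on the other side in 867. In the 45 genes called with all 4 late gliomas its median was 0.63, a value these calls helped to fix, since 3057E took part in them. As single library it has no replicate check. Among genes outside the range of the other 7 gliomas, the highest in 3057E relative to the other late gliomas were genes of microglia and macrophages. The lectin receptor Clec7a was at 186 CPM in 3057E and 0.425 to 3.47 CPM in the late gliomas beside it, against 1.62 to 10.9 CPM in early gliomas. The pore-forming protein Mpeg1 was at 553 CPM in 3057E and 4.59 to 10.8 CPM in the remaining late gliomas, against 9.59 to 38.0 CPM in early gliomas. The fractalkine receptor Cx3cr1 was at 274 CPM in 3057E and 3.06 to 6.64 CPM in 3054A, 3054B and 3054C, against 3.41 to 19.02 CPM in early gliomas. Surrounding cells of the same brain held 161 CPM of Clec7a, 759 CPM of Mpeg1 and 277 CPM of Cx3cr1. Under the same condition, which places them below every early glioma, the lowest genes in 3057E included Myo5b at 0.659 CPM, Moxd1 at 9.89 CPM and Cd109 at 1.48 CPM. Without 3057E, 3 of 14 microglia markers were lower in late gliomas and none higher, beside 8.61% lower over all genes tested. They were Csf1r (-1.70 ± 0.35), P2ry13 (-1.69 ± 0.51) and Siglech (-2.20 ± 0.67). With 3057E their log2 fold changes were 2.25, 2.76 and 2.30, and none of them passed.

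**Figure D5:**
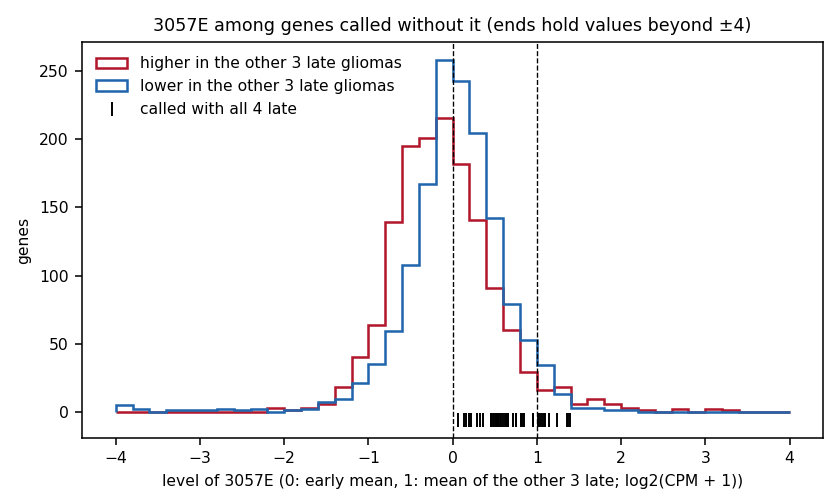
Number of genes (vertical) by the level of 3057E on a scale of 0 at the early mean and 1 at the mean of the other 3 late gliomas (horizontal, from log2(CPM + 1)), for genes called higher (red) or lower (blue) without 3057E, with ticks for the 45 genes called with all 4 late gliomas. Both curves are centred near 0, with a median of -0.05 over the 2912 genes.

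Surrounding cells of the same brains were compared in the same way to see where glioma cells differed in their stage difference. In surrounding cells 260 of 17616 genes were called between late and early tumours (1.48%), and 3406 of 18043 without 3057E (18.9%). Of the 260, 248 were higher and 12 lower, and of the 3406, 1656 were higher and 1750 lower. Of the 33 genes higher in late gliomas, Tmem123, Itga4 and Nfe2l2 were also higher in late surrounding cells, and of the 12 lower genes Slc1a4 was also lower. Without 3057E, 234 of the 1453 higher genes were also called higher in surrounding cells, which is 16.1% of these and 14.1% of the genes higher in surrounding cells. Likewise 586 of the 1459 lower genes were also lower there, 40.2% of these and 33.5% of the genes lower in surrounding cells. In 23 of the 33 genes the mean level in late surrounding cells exceeded that in late gliomas, and the part of surrounding cells in these calls was not tested. The share of all genes with this order was not counted. Itga4 was at 131 to 164 CPM in late surrounding cells and 20.6 to 37.4 CPM in early ones. Foxf1, in contrast, was at 0.961 to 2.57 CPM in late surrounding cells, below every late glioma. Axl was at 171 to 815 CPM in late surrounding cells and 132 to 213 CPM in early ones, each above the early gliomas.

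The difference between the stage effects of both populations was tested in 1 fit. With all tumours edgeR called 0 of 18810 genes (0%), with 1167 at an unadjusted p under 0.05 and a smallest adjusted p of 0.209, while DESeq2 called 43. Without 3057E edgeR called 869 of 19254 genes (4.51%), 380 with a more positive and 489 with a more negative difference in glioma, and 2429 with the tumour code as a block. This count was 304, 100, 318, 149 and 340 without 3054B, 3054C, 3108D, 3109D or 3145A, and 1628 without 3108C. Igf2bp2 had a difference of 5.62 ± 0.83 on the log2 scale (adjusted p = 0.00217), with a stage difference of 7.42 ± 0.68 in glioma and 1.69 ± 0.41 in surrounding cells. Ulbp1 had one of 3.05 ± 0.48 (adjusted p = 0.00357), with a stage difference of 0.99 ± 0.33 in surrounding cells that did not pass. Sox4, a transcription factor of progenitor cells, rose in late gliomas (1.19 ± 0.20) and fell in late surrounding cells (-0.89 ± 0.26). In those surrounding cells 12 of 23 tested oligodendrocyte lineage factors, a list that includes Sox4, were lower and none higher. The part of fewer OPC-like cells in this fall was not tested. Abr, a regulator of small GTPases, fell in late gliomas (-1.35 ± 0.17) and rose in late surrounding cells (0.78 ± 0.22). Lox (3.21 ± 0.77), Sema3e (2.95 ± 0.67), Rcor2 (2.03 ± 0.42), Tfpi (1.63 ± 0.44) and Cdc42ep5 (3.29 ± 0.91) also passed, all with the more positive difference in glioma. For Axl the difference was 0.50 ± 0.43 and did not pass (adjusted p = 0.559).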

How the data were processed

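RNA was sequenced from sorted glioma and surrounding cells of 12 mouse gliomas, after selection of polyA transcripts, per the labels' protocols. What the authors deposited are expected counts for each gene. The submitters' processing notes name RSEM 1.3.1, STAR 2.7.5c and GRCm38. The annotation release, strand setting and use of molecular identifiers are not given in the sources used here. Libraries were grouped by the letters that end their labels.

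Expected counts were rounded, which moved no total by more than 95.2 counts. The model was edgeR 4.0.16 under R 4.3.3 (TMM scaling, filter at a minimum count of 10, robust quasi-likelihood test, group means only), fitted to the 12 glioma libraries, or 11 without 3057E. Differences between populations were fitted in all 24 libraries. Adjusted p (Benjamini and Hochberg over all genes tested) under 0.05 was called. Standard errors derive from the F statistic. Procedures were tested on simulated data. Coordinates come from GENCODE mouse release 21, in which 98.7% of identifiers were found, and promoters from RefSeq.

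The comparison, its 49 gene lists and the rule for named genes were chosen with earlier results of these data known. The rule names each gene called with all 4 late gliomas, the 15 highest and 15 lowest fold changes without 3057E (groups apart, mean log2 CPM 3 or more), up to 4 members per list with the smallest p, the 10 highest and 10 lowest genes of 3057E, 5 genes per direction of the difference between populations, and a short fixed set. Some genes that met it are not reported here. Neighbouring genes, and list members named beyond the rule, were chosen after their values were seen. Each glioma library carries its own tumour code. Both libraries of a code come from 1 brain per the labels, and their deviations from group means correlated at -5.65e-05 (3109D) to 0.419 (3108C). In codes 3108D and 3109D Xist disagreed between the populations. Alternatives were DESeq2 1.42.0, limma 3.58.1 voom with sample weights, other scaling, filters and thresholds, fewer or more libraries, Xist as a covariate, the tumour code as a block, and each library left out in turn. The same alternatives for the difference between populations without 3057E were added after the data were seen.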

Additional observations from a re-analysis of the deposited data

Results flagged for a closer look

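In 212 groups of 4 libraries, covering gene lists and named genes, a value lay far from the other 3 of its group in 13 cases, and chance gives about 1 in 20 such groups. Of these, 10 concerned 3057E. On the scale of mean log2(CPM + 1), 3057E was at 7.06 for microglia markers, against 1.69 to 2.54 in the other late gliomas, and at 5.63 for macrophage and leukocyte markers, against 1.14 to 1.76. It was at 4.37 for hypoxia genes, against 5.60 to 5.84 in the other late gliomas, at 4.68 for Sox, Id and stem cell factors, against 5.04 to 5.11, and at 5.32 for glutamate and GABA receptors, against 4.07 to 4.12. For single genes its log2(CPM + 1) was 0.93 for Car9, 8.10 for Cx3cr1, 0.93 for Prelid2, 6.13 for Ptprc and 2.24 for Rcor2. Late glioma 3054C stood apart at 11.39 for Pdgfra, against 11.65 to 11.69 in the other late gliomas. Early glioma 3108C stood apart at 4.04 for Wnt genes, against 3.63 to 3.66 in the other early gliomas, and at 3.35 for Grin1os, against 2.62 to 2.72.

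Of the 869 genes whose stage difference passed the test of a difference between glioma and surrounding cells without 3057E, 9 with small p are given here. On the log2 scale, glioma minus surrounding, it was 5.62 for Igf2bp2, 3.05 for Ulbp1, 2.65 for Ldb2, 1.99 for Sox4 and 1.73 for Psip1. It was -3.61 for Eif4e3, -3.31 for Tmem8, -2.50 for Marchf1 and -2.21 for Abr. For Ldb2, Psip1 and Tmem8 the stage difference within glioma did not pass the test.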

How the results depend on the processing

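The count of 45 genes with all 4 late gliomas became 989 with DESeq2, 2613 with voom and sample weights, 145 with no filter on low counts, 8 in the late and early gliomas alone, 118 with both populations in 1 fit, 15 with Xist as a covariate, 5 at an adjusted p under 0.01 and 361 under 0.1. It ranged from 2 to 2912 with 1 library left out. The count of 2912 without 3057E became 1661 with both populations in 1 fit, 1022 at an adjusted p under 0.01 and 4491 under 0.1, and ranged from 1501 to 3358 with 1 library left out. DESeq2 gave 3968, with 2904 genes shared, and the remaining alternatives stayed within 1.5 times. The count of 0 for the difference between populations became 43 with DESeq2, and ranged from 0 to 869 with 1 tumour left out. With the tumour code as a replicate block it was 0, and 2 with codes 3108D and 3109D exchanged. The 869 without 3057E became 2429 with the replicate block, 2915 with the exchanged codes and 1843 with DESeq2, and ranged from 100 to 1628 with 1 tumour left out. No paired analysis was possible for late against early gliomas because stages share no tumour. Without 3057E the signs of 3 microglia genes reversed. With 1 library left out, the log2 fold change ranged from -1.70 to 2.65 for Csf1r, -1.69 to 3.16 for P2ry13 and -2.20 to 2.703 for Siglech. The cause of these changes was not tested. Axl and Lox passed in all 12 fits with 1 library left out and in all 11 other alternatives. Counting depth limits genes such as Cnpy1 and the Hoxa genes, whose floor rests on 3 counts and covers counting error only.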

Other observations

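Members of several gene lists were also called between late and early surrounding cells without 3057E. Over all 18043 genes tested there, 1656 were higher and 1750 lower. Glycolysis genes were higher there in 14 of 19 tested members and lower in 1, the same number of higher members as in glioma cells. Of 28 interferon response genes 24 were higher in late surrounding cells, and of 12 MHC class I genes all 12 were higher, against none higher and 2 lower in glioma cells. Voltage-gated channels were lower in 15 of 26 members in late surrounding cells, beside 16 of 26 in glioma cells. OPC markers were lower in 8 of 16 members in late surrounding cells (median -1.84), against 4 of 16 in glioma cells (median -0.04). The part of OPC-like cells in the channel count of surrounding cells was not tested. None of 26 mitosis genes and none of 32 ribosomal protein genes passed edgeR's test in surrounding cells. Their medians on the log2 scale were 0.22 and 0.79, against 1.20 and 0.75 in glioma cells. For single members, the test of the difference between populations called 1 mitosis gene and no ribosomal protein gene.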
